A study of Homo sapiens with 12 samples.

Results

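MAFA, PDX1, NKX6-1, NKX2-2, NEUROD1, ISL1, PAX6, RFX6 and SIX3 are transcription factors of the pancreatic beta cell. They were found in the deposited expression table by their gene symbols, which matched 9 of its 35337 rows, and each of the 9 genes was measured well enough to be tested. The expression data came from EndoC-βH3 cells, a human cell line with properties of beta cells that was derived from fetal pancreas. The line carries hTERT and SV40 large T antigen, which make it proliferate, and a recombinase that 4-hydroxytamoxifen activates to remove them. Messenger RNA was read at its 3′ end by CEL-seq2 in 6 senescent samples, taken after 3 weeks of 4-hydroxytamoxifen, and in 6 non-senescent samples labelled control. Both groups had the genotype label WT and the same introduced genes before treatment, so removal of the transgenes, exposure to the drug and time in culture cannot be told apart. The study asked which genes change when these cells become senescent, and for the transcription factors the question was how far the beta-cell programme changed with them.

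Insulin-producing cells keep their identity through a small network of DNA-binding proteins that act on one another's genes and on those for insulin and its secretion. PDX1, NKX6-1, NKX2-2, ISL1, PAX6 and SIX3 bind DNA through a homeodomain, NEUROD1 is a basic helix-loop-helix factor, RFX6 has a winged-helix domain, and MAFA is a basic leucine zipper factor. In human islets MAFA and SIX3 are known as factors that gain expression after birth.

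The samples fell into batch A, with 2 samples of each group, and batch B, with 4 of each, as given by the letter in the sample titles. Libraries held 8873569 to 17106776 reads in batch A and 4672924 to 7063264 in batch B. Values are normalised read counts, which are reads divided by a size factor for each library, and they were compared on the log2 scale after adding 1. A change had to pass 2 limits, an adjusted p below 0.1 and more than 1.5-fold, which is 0.58 on the log2 scale in either direction. CDKN1A, a cell cycle inhibitor that marks senescence, rose by 3.92 on the log2 scale, and MKI67, a marker of dividing cells, fell by 2.83. The size of both changes differed between batches. Batch A and batch B gave 2.18 and 4.78 for CDKN1A (batch by group interaction, adjusted p = 0.00191). For MKI67 they gave -3.45 and -2.51 (interaction adjusted p = 0.022). This interaction test was passed by 4.21% of all genes. TERT had a log2 fold change of 0.28 (adjusted p = 0.107), but whether reads of the introduced hTERT were counted under this gene is not known, so it does not check the removal.

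The promoters of NKX6-1 and ISL1 are shown because both genes had an adjusted p under 0.1 over both batches, though under the fold limit. A further reason is that each has a single promoter in the RefSeq table with a match to a motif of the factor families described here. The table covered 5 of the 9 genes, namely NKX6-1, NKX2-2, NEUROD1, ISL1 and PAX6. Each sequence runs 5′ to 3′ on the strand of the gene, from 250 bases before the start of transcription to 50 after it, in RefSeq's GRCh38.p14, and the capitals mark the motif matches. The first lies at chr4:84499243-84499542 on the minus strand and the second at chr5:51383198-51383497 on the plus strand.
NKX6-1: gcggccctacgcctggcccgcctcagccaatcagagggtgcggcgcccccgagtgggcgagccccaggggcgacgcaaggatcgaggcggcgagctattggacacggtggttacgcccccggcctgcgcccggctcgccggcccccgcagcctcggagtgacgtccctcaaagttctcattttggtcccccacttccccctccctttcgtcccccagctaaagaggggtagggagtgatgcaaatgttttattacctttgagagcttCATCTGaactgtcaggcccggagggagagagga
ISL1: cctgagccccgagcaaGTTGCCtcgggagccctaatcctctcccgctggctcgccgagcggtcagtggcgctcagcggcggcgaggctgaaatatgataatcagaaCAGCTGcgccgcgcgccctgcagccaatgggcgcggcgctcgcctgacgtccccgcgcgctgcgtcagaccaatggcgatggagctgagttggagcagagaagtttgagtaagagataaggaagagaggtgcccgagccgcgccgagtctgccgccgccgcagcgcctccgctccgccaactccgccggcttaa
The search, on both strands, used TAATTA and TAATGA for homeodomain factors, TGCTGA for MAF factors, CAGATG and CAGCTG for helix-loop-helix factors, GTTNCC for RFX factors and TGTTTAC for FOXA factors, and no 2 of the marked matches overlap. The NKX6-1 window held CAGATG, seen as its reverse complement 18 bases into the transcript, and 14.7% of 35116 promoters in the table hold this motif. The ISL1 window held GTTNCC 234 bases before the start, a motif in 45.4% of promoters, and CAGCTG 144 bases before it, a motif in 17.9%. The NEUROD1 window, at chr2:181680468-181680767 on the minus strand, held none of these letters. TAATTA is in 4.84% of the promoters, TAATGA in 8.76%, TGCTGA in 17.3% and TGTTTAC in 3.42%, and none of these is in the NKX6-1 or ISL1 window.

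Of the 9 factors, MAFA and PDX1 rose and SIX3 fell in senescent cells. Over all 13847 genes tested 23.4% were called, 11.6% higher and 11.8% lower, so the 3 of 9 factors called are near this background. At an adjusted p under 0.1 with no limit on the fold change, 7 of the 9 factors differed, against 45.5% of all genes. The median log2 fold change was 0.11 over the 9 factors and 0.01 over all genes tested. In bulk RNA, fewer cells that express a gene and less RNA per cell cannot be told apart.

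MAFA activates insulin transcription and lies on the minus strand of chromosome 8 (143419182 to 143430732, GRCh38). It was the lowest of the 9 factors in non-senescent cells, with normalised read counts from 8.89 to 27.3 and a median of 10.8. In senescent cells its values ran from 44.4 to 114 with a median of 87.3, so every senescent sample lay above every non-senescent one. MAFA rose by 2.36 ± 0.25 on the log2 scale (SE, 95% interval 1.83 to 2.90, adjusted p = 1.16e-06), a 5.15-fold difference. The rise in batch A, 2.22, was near that in batch B, 2.44. These values rest on few reads, 84 in all non-senescent and 518 in all senescent libraries. Within batch B the non-senescent samples ranged from 9.64 to 27.3, the widest spread of any factor within a group and batch by the ratio of highest to lowest.

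PDX1, on the plus strand of chromosome 13 (27920000 to 27926313), is needed for pancreas formation and for insulin expression in adult beta cells. Its normalised read count ranged from 2581 to 3121 with a median of 2761 in non-senescent samples, and from 3805 to 4785 with a median of 4146 in senescent samples. The groups did not overlap in either batch. PDX1 rose by 0.59 ± 0.07 on the log2 scale (SE, 95% interval 0.45 to 0.73, adjusted p = 2.49e-06), which is just past the fold limit. Batch A gave 0.75 and batch B gave 0.51. PDX1 fell short of the limit with edgeR (0.58), with libraries scaled to the same total (0.48) and with any of 7 libraries left out, while its direction and adjusted p under 0.1 held in all of these.

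SIX3, a homeodomain factor of adult human beta cells, lies on the plus strand of chromosome 2 (44941702 to 44946071). Its normalised read count ranged from 74.5 to 168 with a median of 119 in non-senescent samples, and from 49.7 to 106 with a median of 69.4 in senescent samples, so the groups overlapped. SIX3 fell by 0.63 on the log2 scale with an SE of 0.19 (95% interval -1.03 to -0.24, adjusted p = 0.012). The log2 fold change was -0.39 for batch A and -0.76 for batch B, and only batch B was past the limits when tested alone. The call was lost without non-senescent B2 (-0.56), non-senescent B3 (-0.52) or senescent B1 (-0.56), each time at an adjusted p near 0.03 and under the fold limit. SIX3 had 41 to 222 reads per library.

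**Figure D1:**
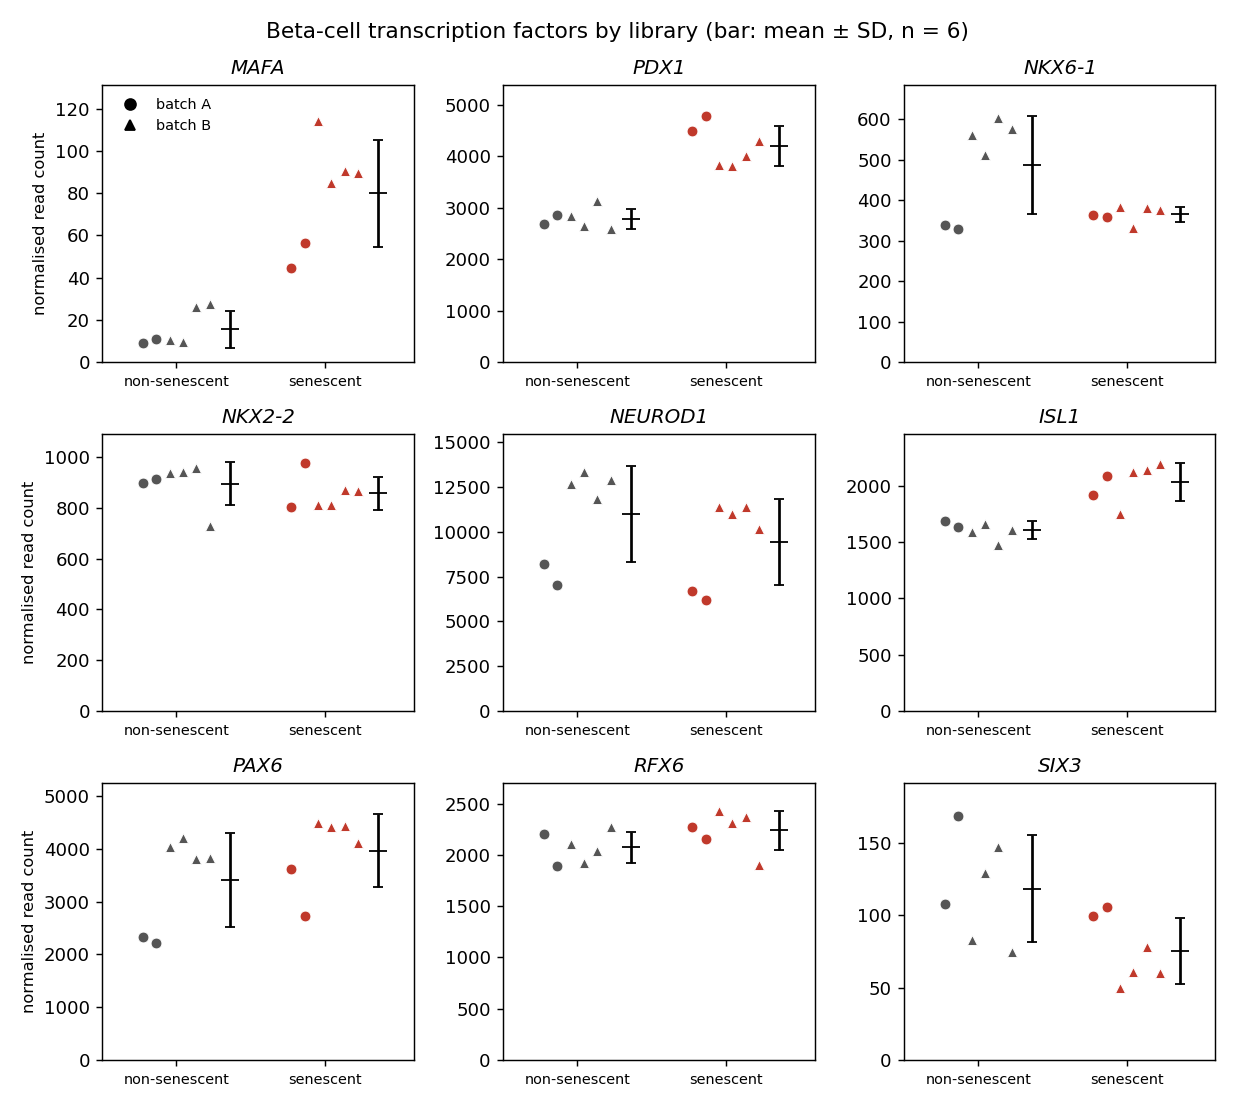
Normalised read count (y axis, linear from 0) of each transcription factor in the 6 non-senescent (grey) and 6 senescent (red) samples, with circles for batch A, triangles for batch B and a bar for the mean ± SD. MAFA, PDX1 and ISL1 show no overlap between groups, and NKX6-1 differs between groups in batch B but reads 329 to 364 in all 4 samples of batch A.

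ISL1, a LIM homeodomain factor needed for islet development and for MAFA expression, lies at 51383448 to 51394730 on chromosome 5. Its values were 1469 to 1685 with a median of 1618 in non-senescent samples and 1750 to 2188 with a median of 2102 in senescent samples. All 6 senescent samples were above all 6 non-senescent ones, yet the difference was small, 0.34 ± 0.07 on the log2 scale (SE, adjusted p = 7.88e-04). Batch A gave 0.27 and batch B gave 0.37. The 95% interval, 0.19 to 0.48, stayed under the fold limit. Full separation of the 6 and 6 values was found for 3 of the 9 factors and for 10.2% of all genes tested.

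NEUROD1, a helix-loop-helix activator of the insulin gene, had the highest normalised read count of the 9 factors. It lies on the minus strand of chromosome 2 (181668295 to 181680827). Its values were 7023 to 13331 with a median of 12236 in non-senescent samples and 6166 to 11377 with a median of 10569 in senescent samples. The ranges overlapped over both batches, but within each batch every senescent sample was lower. The log2 fold change was -0.22 ± 0.06 (SE, 95% interval -0.35 to -0.09, adjusted p = 0.00769). Batch A alone gave -0.24 and batch B alone -0.21. Separation within both batches in the same direction held for 4 of the 9 factors, MAFA, PDX1 and ISL1 higher and NEUROD1 lower, and for 23.8% of all genes tested. CERKL, a neighbour chosen after its values were seen, overlaps NEUROD1 by 12371 bases on the same strand and differed in the same direction (-0.47, adjusted p = 0.0126), at 78.4 against 56.0 normalised reads. Whether reads of CERKL and NEUROD1 were kept apart in the counting is not known, so their like direction may not be independent.

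PAX6, a paired-domain and homeodomain factor needed by all islet endocrine cells, lies on the minus strand of chromosome 11 (31784779 to 31817961). Its values were 2211 to 4204 with a median of 3823 in non-senescent samples and 2723 to 4495 with a median of 4268 in senescent samples. The senescent samples were above all non-senescent ones in batch A, while in batch B the ranges overlapped. The log2 fold change was 0.25 ± 0.08 (SE, 95% interval 0.08 to 0.41, adjusted p = 0.0181). Batch A gave 0.47 and batch B 0.14. The difference between these did not pass the interaction test (adjusted p = 0.253). ELP4 on the opposite strand overlaps the 3′ end of PAX6 by 5546 bases and also read higher (0.40, adjusted p = 3.98e-04). The use of strand in the authors' counting is not given in the sources used here, so reads of these genes may not be separated.

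NKX2-2 and RFX6 did not pass the test. NKX2-2, a homeodomain repressor of alpha-cell genes on chromosome 20 (21511017 to 21514064), ranged from 728 to 956 (median 925) in non-senescent and from 803 to 975 (median 839) in senescent samples. Its log2 fold change was -0.06 (95% interval -0.23 to 0.11, adjusted p = 0.581). RFX6, needed for endocrine differentiation and beta-cell function, lies at 116877212 to 116932161 on chromosome 6. It ranged from 1890 to 2271 (median 2075) in non-senescent and from 1898 to 2427 (median 2297) in senescent samples. Its log2 fold change was 0.11 (95% interval -0.04 to 0.26, adjusted p = 0.247). Both intervals stayed inside the fold limit on either side.

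**Figure D2:**
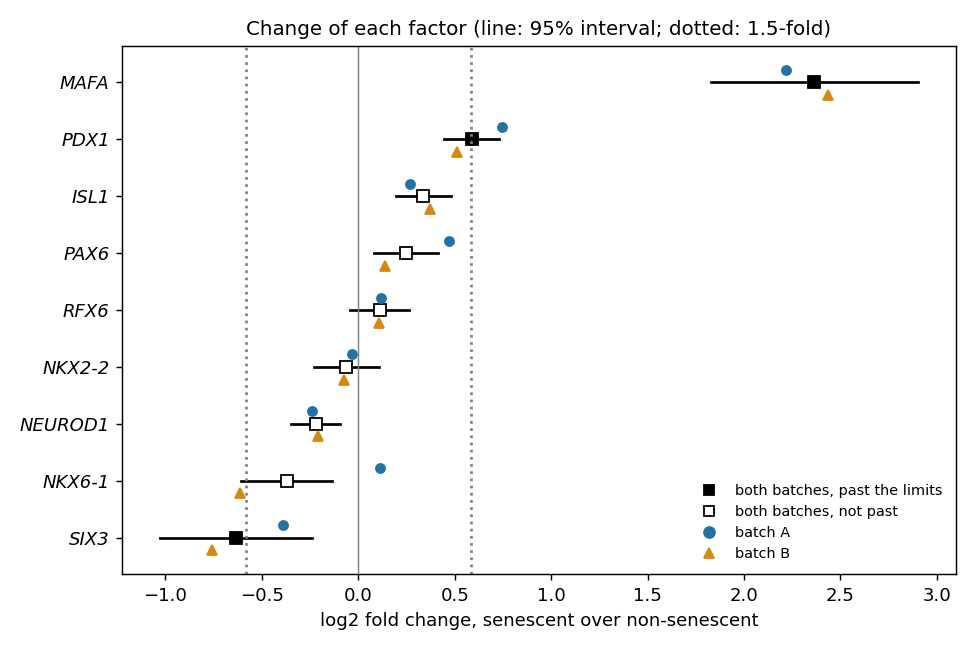
Log2 fold change of each factor, senescent over non-senescent (x axis), with squares and 95% intervals for the fit over both batches, filled where past the limits, and circles and triangles for batches A and B alone. MAFA stands apart at 2.36, PDX1 and SIX3 lie at the 1.5-fold lines, and NKX6-1 has 0.11 in batch A and -0.61 in batch B.

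NKX6-1, a homeodomain factor that holds beta-cell identity against other endocrine fates, behaved differently in the 2 batches. It lies on the minus strand of chromosome 4 (84491985 to 84499292). Non-senescent samples read 329 and 340 in batch A and 512 to 603 in batch B. Senescent samples read 359 and 364 in batch A and 333 to 384 in batch B, so that all 6 senescent samples and the non-senescent samples of batch A had like values and the 4 non-senescent samples of batch B stood above. The log2 fold change was 0.11 ± 0.08 in batch A (SE, adjusted p = 0.325) and -0.61 ± 0.08 in batch B (adjusted p = 4.76e-04). The difference, -0.72, passed the interaction test (adjusted p = 0.0174), as did 4.21% of all genes and 1 of the 9 factors. The test was not passed with non-senescent A2 left out. Over both batches the log2 fold change was -0.37 (95% interval -0.61 to -0.14, adjusted p = 0.0137), a mean of 2 effects that were not alike.

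Several factors had different levels in the 2 batches among the non-senescent samples. In non-senescent samples batch B exceeded batch A on the log2 scale by 0.80 for PAX6, 0.75 for NKX6-1, 0.74 for NEUROD1 and 0.68 for MAFA. The same batch difference in senescent samples was 0.77 for NEUROD1, 0.90 for MAFA and 0.47 for PAX6, but 0.02 for NKX6-1. PDX1, NKX2-2, ISL1 and RFX6 differed by at most 0.07 between the batches in non-senescent samples. SIX3 shifted the other way, with batch B minus batch A at -0.37 on the log2 scale in non-senescent and -0.74 in senescent samples. For PAX6, NKX6-1 and NEUROD1 the shift between batches in non-senescent samples exceeded the group difference, and the fits held batch as a term. Of the 9 factors, 8 had the same sign in both batches. Tested alone, batch A called MAFA and PDX1 (2 of 9, against 23.4% of all genes), and batch B called MAFA, NKX6-1 and SIX3 (3 of 9, against 24%).

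The paralogues of the 9 factors, which share their DNA-binding domains, moved in both directions. Of 34 listed, 18 were tested, 3 rose and 3 fell, with a median log2 fold change of -0.16. Over all genes tested 11.6% rose and 11.8% fell. The adjusted p limit alone was passed by 11 of the 18, against 45.5% of all genes. SIX2, like SIX3 a homeodomain factor of human beta cells, fell by 2.61 on the log2 scale (SE 0.33), from 47.2 to 107 normalised reads in non-senescent samples to 3.43 to 16.3 in senescent ones. Senescent libraries held 3 to 34 reads of SIX2. SIX5 fell by 1.33, and NKX6-3, a paralogue of NKX6-1, fell by 0.70. PAX4, a PAX family repressor active in beta-cell development, rose by 1.57 (SE 0.26), from a mean of 22.6 to 72.4 normalised reads. RFX1 rose by 0.80 and the small MAF protein MAFK by 0.73. MAFK gave 0.13 in batch A, where it was not called, and 1.04 in batch B, and its call was lost without non-senescent B1 (0.49). NKX6-3 gave -0.56 in batch B alone, under the fold limit.

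Among 18 tested of 26 other islet transcription factors, 3 rose and 2 fell, at a median of -0.04, against 11.6% and 11.8% of all genes. The adjusted p limit alone was passed by 10 of the 18, against 45.5% of all genes. GLIS3, an activator of the insulin gene, rose by 0.90 and MYT1, an endocrine zinc finger factor, by 0.60, besides PAX4. GLIS3 gave 0.18 in batch A, where it was not called, and 1.26 in batch B. MYT1 lay close to the fold limit and was under it with a pseudocount of 8 (0.55), with the same total (0.50), in batch A alone (0.45) and without non-senescent B1 (0.53), senescent A1 (0.57), senescent B1 (0.57), senescent B2 (0.58) or senescent B4 (0.58). INSM1, a zinc finger factor of endocrine differentiation, fell by 0.63 (SE 0.06) and by the same amount, 0.63, in each batch. SIX2 is the other factor that fell.

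Of 30 tested genes for proteins that bind these factors or act with them on chromatin, 4 rose and 3 fell, at a median of 0.03. Over all genes tested 11.6% rose and 11.8% fell. The adjusted p limit alone was passed by 14 of the 30, against 45.5% of all genes. MEIS2, a homeodomain partner of PDX1 and PBX proteins, rose by 1.00, PBX2 by 0.76, SSBP2 of the LIM-domain complex by 0.71 and the corepressor TLE4 by 0.67. The corepressor TLE3, which acts with NKX factors, fell by 2.57, DNMT1, the maintenance DNA methyltransferase, by 0.97 and TLE2 by 0.83. TLE3 read 1.05 to 9.43 in senescent samples, which is 1 to 21 reads per library. Batch A and batch B gave 1.47 and 0.33 for SSBP2 (interaction adjusted p = 0.035), 0.19 and 1.04 for PBX2 (0.362), and -0.35 and -1.07 for TLE2 (0.0999). SSBP2 was not called in batch B alone or without senescent A1 (0.57), PBX2 and TLE2 were not called in batch A alone, and TLE4 was under the fold limit with the same total (0.56). Of these 30 genes, 5 passed the interaction test, against 4.21% of all genes. LDB1, the adaptor of ISL1, was named after its values were seen and had log2 fold changes of -0.77 in batch A and 0.96 in batch B (interaction adjusted p = 0.00484).

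Of 27 symbols on a list of targets of beta-cell transcription factors, 26 were found and 23 were tested. Of the 23 genes tested, 11 rose and 2 fell, against 11.6% higher and 11.8% lower over all genes. Their median log2 fold change was 0.57 against 0.01 for all genes. SLC2A2 (3 reads in all non-senescent and 15 in all senescent libraries), GLP1R (2 and 1) and CLTRN (24 and 32) were too low to test. INS rose by 2.23 (SE 0.11), from a mean of 19853 to 99547 normalised reads, ENTPD3, a beta-cell surface ectonucleotidase, by 1.93, the islet peptide gene IAPP by 1.87 and the granule protein gene CHGB by 1.25. PCSK1, a proinsulin convertase, fell by 1.06 and UCN3, a peptide of mature beta cells, by 0.63. The UCN3 fall was smaller in batch A, with -0.14 against -0.88 in batch B (interaction adjusted p = 0.0917), and UCN3 was under the fold limit without non-senescent B1 (-0.58), non-senescent B2 (-0.56) or senescent B2 (-0.55). PCSK1 gave -1.55 in batch A and -0.81 in batch B (interaction adjusted p = 0.0533). Of these 23 genes 5 passed the interaction test, against 4.21% of all genes, namely UCN3, PCSK1, CPE, SCG2 and SLC30A8. Log2 fold changes for batches A and B were 0.27 and 1.02 for CPE, -0.55 and 0.46 for SCG2, and -0.63 and 0.08 for SLC30A8. CPE was the only one of the genes that rose to pass this test. The list overlaps with beta-cell markers, and its members were chosen with earlier results of these samples known.

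**Figure D3:**
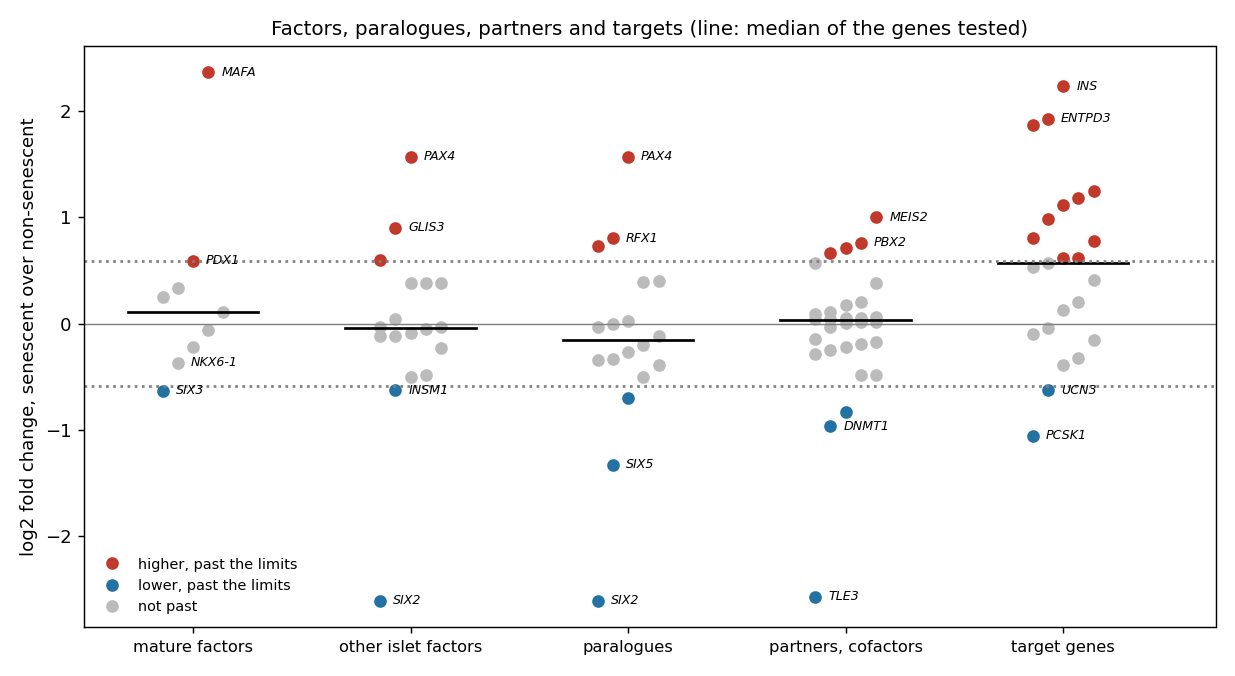
Log2 fold change, senescent over non-senescent (y axis), of every tested gene in 5 groups, with red for genes that rose, blue for genes that fell, grey for neither and a line for the median. The target genes have a median of 0.57, while the medians of the 9 factors, other islet factors, paralogues and partners lie between -0.16 and 0.11.

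Markers of other cell types were read beside these results. Of the 6 beta-cell markers 3 rose (INS, ENTPD3 and IAPP) and 1 fell (PCSK1), where 11.6% of all genes tested rose and 11.8% fell. Of these 6 genes 2, SLC30A8 and PCSK1, passed the interaction test, against 4.21% of all genes. Of the 5 alpha-cell markers LOXL4 (2.28) and TTR (1.59) rose and GCG, the glucagon gene, fell by 1.30. Of these 5 genes 4 passed the interaction test, against 4.21% of all genes. Batch A and batch B gave -2.36 and -0.77 for GCG, 0.99 and 1.88 for TTR, 1.69 and 2.57 for LOXL4, and 0.38 and -0.87 for IRX2, an alpha-cell factor named after its values were seen. From the list for delta, PP and epsilon cells, the delta-cell markers SST, HHEX and LEPR fell by 0.64, 0.74 and 0.90. The LEPR value was -1.99 for batch A alone, against -0.36 for batch B (interaction adjusted p = 0.175). PPY, the PP-cell marker, had at most 3 reads in any library. GHRL, the epsilon-cell marker, had 48 reads in all non-senescent and 14 in all senescent libraries. Neither PPY nor GHRL was tested. SST gave -1.24 in batch A and -0.35 in batch B (interaction adjusted p = 7.47e-04). The summed level of the alpha-cell list ran from 49292 to 124131 in non-senescent and from 155263 to 244267 in senescent samples, mostly TTR. The summed delta, PP and epsilon list ran from 159964 to 287961 and from 115199 to 142740, mostly SST. The acinar list summed to 33.9 to 58.4 and 144 to 251, and 4 of its 5 genes (PRSS1, CTRB1, PTF1A and CELA3A) had at most 3 reads in every library, leaving CPA1, which rose by 2.25. The ductal list summed to 242 to 379 and 79.9 to 160, with KRT19 falling by 1.35. The list for mesenchymal, endothelial and immune cells summed to 30.2 to 181 and 27.8 to 90.4, with PTPRC falling by 1.58, and its PDGFRB and VWF had no reads. PTPRC gave -0.34 in batch A and -2.20 in batch B (interaction adjusted p = 0.266). It had 68 reads in all non-senescent and 26 in all senescent libraries. The part of other endocrine cells in the values of PAX6, NEUROD1, ISL1 and RFX6, which those cells share, was not tested.

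Genes whose pattern was most like that of each factor were sought by Pearson's r of log2 values centred within batch, over 12 samples and 11673 genes with a mean of at least 20. MAFA was most like RCAN2 (r = 0.98), CD59 (r = 0.98) and TPRG1L (r = 0.98), and PDX1 like SPEG (r = 0.98), IFT46 (r = 0.98) and FOXO6 (r = 0.98). NKX6-1 was most like DAB2IP (r = 0.97), PSMG1 (r = 0.96) and SEPT3 (r = 0.95), NEUROD1 like AP3S1 (r = 0.94), GTPBP6 (r = 0.94) and DHX15 (r = 0.91), and SIX3 like PPP2R5D (r = 0.92), YIF1B (r = 0.92) and RFXAP (r = 0.91). ISL1 was most like PLEKHG3 (r = 0.96), OLFM2 (r = 0.96) and TBCB (r = 0.95), PAX6 like PRMT1 (r = 0.95), ARMC9 (r = 0.94) and OMA1 (r = 0.91), RFX6 like ZNF354C (r = 0.92), PMPCB (r = 0.89) and ZNF266 (r = 0.89), and NKX2-2 like TTC34 (r = 0.92), SPG21 (r = 0.89) and GALNT6 (r = 0.89). These are the highest of many values and the samples share their group, libraries and size factors.

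Among the 9 factors themselves, 36 pairs were described the same way, over 12 samples. Centred within batch, MAFA and PDX1 had r = 0.91 and PDX1 and NEUROD1 had r = -0.91. With the group mean also removed, r was 0.20 for MAFA and PDX1 but -0.80 for PDX1 and NEUROD1. The latter was the largest in size of the 36 pairs and was picked after the values were seen. On this measure the 2 batch A samples of a group mirror each other, so fewer than 12 values are independent. Whether PDX1 and NEUROD1 are related within groups was not tested. NEUROD1 and RFX6 had r = 0.68, and PDX1 and NKX2-2 r = 0.67. In all, 6 of the 36 pairs were above 0.5 and 3 were below -0.5 on that measure, and 15 kept the sign they had before the group mean was removed.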

How the data were processed

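CEL-seq2 libraries of 6 senescent and 6 non-senescent EndoC-βH3 samples were grouped by their labels. Per the study's methods, the authors used Cutadapt for trimming, Salmon 0.13.1 with GRCh38 for quantification and DESeq2 for normalisation. The annotation, strand and molecular identifiers are not given in the sources used here. The deposited values are a signal, read counts divided by a size factor per library. The deposited table also holds the authors' own comparison (mean, log2 fold change, error, statistic as a score, p-value and adjusted p-value), which was not used. Whole reads were recovered (100% of 196021 non-zero values, tolerance 0.01). Floors of 3 reads (0.175 to 0.642 ppm) cover counting error only, and no library was a copy of another. The intervals printed with log2 fold changes come from the main test and rest on the spread between samples.

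The main test was limma 3.58.1 (R 4.3.3) with intensity trend on log2(value + 1), with batch and group, for 13847 of 22707 genes with reads, those with a mean of at least 5. Adjusted p-values are Benjamini-Hochberg over all genes tested. Adding 1 lessens the log2 differences of low genes, yet their changes were not always smaller than those from edgeR. With edgeR the log2 fold change was 2.33 for MAFA and -2.50 for SIX2, smaller in size than in the main test. For TLE3 it was -2.72, larger in size. The batch by group interaction used the same limit of 0.1. edgeR 4.0.16 and DESeq2 1.42.0 were run on recovered reads, where edgeR called 3238 genes and 2 of the factors, DESeq2 3228 and 3. In simulated data for this comparison limma recovered 90.5% of 200 changed genes among 13847. Nothing states that replicates were separate cultures, so p-values measure the spread between these samples. Positions came from GENCODE v44.

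The 9 factors and all gene lists were chosen with earlier results of these data known. Named from each list were the called genes, at most 4 rises and 4 falls, with INS, CDKN1A, MKI67 and TERT, and 3 genes most like each factor. Alternatives varied pseudocount, filter, scaling, batch term, replicate block, batch, tool and libraries. A further planned result is not reported here.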

Additional observations from a re-analysis of the deposited data

Results flagged for a closer look

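In 36 groups of 4 or 6 samples of the 9 factors, a sample standing apart from the rest was sought by Dixon's criterion, which flags about 1 in 20 groups by chance. NKX2-2 in non-senescent B4 read 728, against 896 for the next sample of all 6 and 937 for the next in batch B, and so was noted for both groupings. ISL1 in senescent B1 read 1750, against 2123 for the next senescent sample of batch B.

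NKX6-1 was noted because its response differed between batches by -0.72 on the log2 scale (limma interaction, adjusted p = 0.0174). It was lower in all 4 senescent samples of batch B and higher in both of batch A than in any non-senescent sample of the same batch.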

How the results depend on the processing

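MAFA was called under every alternative and with any library left out. With batch A alone the log2 fold change of NKX6-1 turned to 0.11. Without the batch term 2143 genes were called in place of 3237, and SIX3 (adjusted p = 0.119), MYT1, INSM1, MAFK, MEIS2, TLE2 and PCSK1 were not. Without the fold limit 6301 genes and 7 of the 9 factors passed. With libraries left out in turn the factors called ranged from 1 to 3, being 1 (MAFA) without non-senescent B2, and the factors that differed between batches from 0 (without non-senescent A2) to 2 (NKX6-1 and PAX6, without senescent A2). PDX1 was under the fold limit with upper quartile scaling (0.58), the same total (0.48), edgeR (0.58) and batch B alone (0.51). With the same total, 37.0% of the genes called were higher, against 49.6%, and the median of all genes was -0.09. Causes were not tested.

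No pairing by equal numbers was seen, and the main fit left samples unpaired. Residuals of same-numbered samples had r between -0.05 and 0.02, and 1 of 4 senescent batch B libraries correlated best with its number. In batch A the residuals of the 2 samples of a group mirror each other, so A1 and A2 give the same r. These values cannot exclude pairing. With the replicate block 3 factors were called (MAFA, PDX1 and SIX3) and 3211 genes. Counts were low for MAFA, with 7 to 22 reads per non-senescent library, and for SIX2, TLE3, PTPRC, LEPR and PBX2.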
